A study of Mus musculus with 24 samples.

Results

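In wild-type mouse embryos, 72 of the 20175 probes of a spatial transcriptome panel were brighter in the mesenchyme beside the Müllerian ducts than in the duct epithelium, and these 72 probes were followed into Wnt7a null embryos. They are called members here. Members were chosen on wild-type values alone. Levels are in CPM, a count divided by its library's total and multiplied by 1000000. In each of the 6 wild-type embryos the region difference d was taken as log2((epithelium CPM + 20)/(mesenchyme CPM + 20)), so that a negative d means more signal in mesenchyme. A member had a mean d of at most -0.7, a d below 0 in all 6 embryos and a mean of at least 60 CPM in wild-type mesenchyme. The mean d passed the threshold for 90 probes, of which 10 were below the CPM floor and 8 others had a d of 0 or more in some embryo.

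Female embryos, wild-type or Wnt7a null, were taken at E13.5 (E for embryonic day), before the paired ducts fuse, and at E14.5, when they lie against each other at the midline. There were 3 embryos for each genotype and stage, 12 in all. Laminin staining was used to draw 1 region of duct epithelium (MDE) and 1 of neighbouring duct mesenchyme (MDM) per embryo, which gave 24 libraries in 8 groups of 3. All sections were fixed in paraformaldehyde, embedded in paraffin and placed on 1 slide. The labels give the genotype as Wnt7a null and do not describe the allele. The files list probes by identifier without a gene name, and 0 of the identifiers matched the gene table used here. The level of Wnt7a and the tissue markers of the 2 regions were therefore not checked, and the regions are named as labelled.

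The Müllerian ducts are the embryonic tubes that form the oviducts, uterus and upper vagina. Duct mesenchyme surrounds the epithelial tube, and signals pass between the layers during growth, fusion and patterning. Wnt7a encodes a secreted Wnt ligand made by the duct epithelium, and female mice without it have a malformed reproductive tract.

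The MDM libraries held 1039606 to 12379529 counts. Of the 12 MDE libraries, 11 held 139017 to 619233 counts. Each count there stood for 2.07 to 2.38 aligned reads, while each MDM count stood for 21.1 to 26.8. The exception was the MDE library of null E14.5 embryo 2, with 2618342 counts at 24.1 aligned reads per count. In the other 11 embryos region and sequencing depth cannot be told apart, so results that rest on embryo 2 are also given without it. Libraries also differed in contrast, measured as the share of counts on the brightest 5% of probes. That share was 13.9% to 19.5% in null E14.5 libraries, 25.1% to 28.9% in wild-type E14.5, 17.9% to 26.2% in null E13.5 and 18.9% to 27.4% in wild-type E13.5. The mean of the dimmest 25% of probes, used as the background, was 29.96 to 33.8 CPM in null E14.5 libraries and 22.7 to 26.5 CPM in wild-type E14.5 libraries. In regions of many cells, fewer cells of a type and less RNA per cell cannot be told apart.

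In wild-type embryos the members had a mean d from -1.83 to -0.70, with a median of -0.91, and their mean MDM level ran from 60.8 to 455 CPM with a median of 101 CPM. The 2 members with the most negative mean d were RTS0064427, at -1.83 and 455 CPM, and RTS0068460, at -1.80 and 378 CPM. RTS0071090 lay just inside the threshold at -0.70, and RTS0063159 lay just outside it at -0.69. These values chose the members and are a description. The median d over members was -0.58, -0.85 and -0.96 in the 3 wild-type E13.5 embryos. It was -1.22, -0.95 and -1.04 in the 3 wild-type E14.5 embryos. Over the 2814 probes with at least 60 CPM in wild-type MDM, the median d lay near 0 in each embryo, between -0.015 in null E13.5 embryo 3 and 0.048 in null E13.5 embryo 1.

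**Figure D1:**
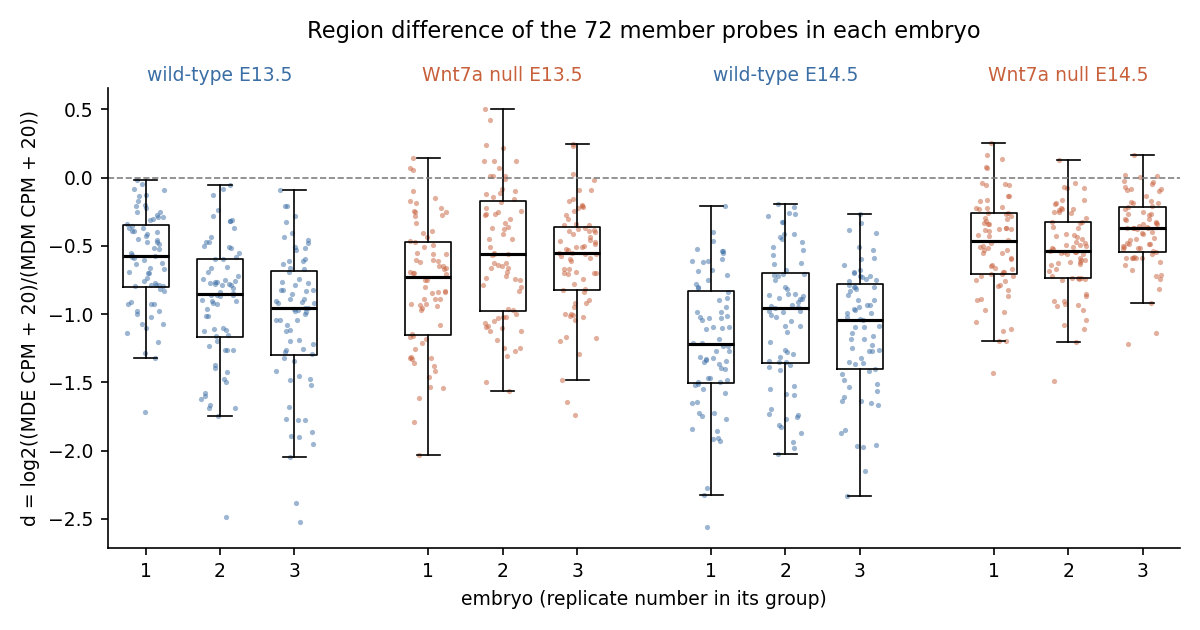
Region difference d of the 72 members (y axis, log2 of MDE over MDM CPM after adding 20) in each of the 12 embryos (x axis), with points for probes, boxes from the 25th to the 75th percentile, a line at the median and whiskers to the last point within 1.5 box lengths. The medians run from -1.22 to -0.95 in wild-type E14.5 embryos and from -0.54 to -0.37 in null E14.5 embryos. Wild-type values chose the probes.

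Most members kept a lower signal in epithelium than in mesenchyme in null embryos, which the choice of members did not use. The median d over members was -0.73, -0.56 and -0.55 in the 3 null E13.5 embryos, a mean of -0.61 ± 0.10 (SD, n = 3). At E14.5 it was -0.47, -0.54 and -0.37 in the null embryos, a mean of -0.46 ± 0.085 (SD, n = 3). Each of the 6 null embryos had 61 to 71 of the 72 members below 0. At E13.5, 56 members were below 0 in all 3 null embryos, against 17.9% of all probes. At E14.5, 63 members were, against 19.2% of all probes, and 50 members were below 0 in all 6 null embryos, against 4.56% of all probes. The mean MDM level was at least 1.5 times the mean MDE level for 50 members in null E13.5 embryos and for 39 in null E14.5 embryos. The share of all probes at this ratio is not given here, so these 2 counts are only a description.

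The region difference in null embryos was tested probe by probe on the 12 null libraries with edgeR, with both regions of an embryo kept together as a block. At E13.5, 26 of 72 members were called lower in MDE at an adjusted p under 0.05, and 0 higher. Among all probes tested 0.297% were called lower and 0.778% higher, and among the probes of at least 60 CPM 1.53% were called lower. The median log2 fold change of MDE over MDM was -0.74 over members and -0.0010 over all probes, and 71 members were below 0. The exception, named after its value was seen, was RTS0066217 at 0.042 (SE 0.23). Without null E13.5 embryo 1 the count was 17, and without embryo 3 it was 14. With upper-quartile scaling it was 43, and with MDM counts thinned to the depth of MDE it was 14.

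At E14.5, 51 of 72 null members were called lower in MDE and 0 higher, where 0.555% of all probes and 2.77% of the probes of at least 60 CPM were called lower. Of all probes 1.48% were called higher. The median log2 fold change was -0.62 over members, and all 72 were below 0, from -1.47 to -0.04. The count rested on embryo 2, whose MDE library was sequenced far more deeply. Without that embryo 11 members were called, and without embryo 1 or 3 there were 44 or 43. In embryo 2 alone, where both regions were deep, the median d was -0.54 and 71 of 72 members were below 0, the most of the 3 null E14.5 embryos. DESeq2 gave an adjusted p for 47 members and called 25 of them lower.

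**Figure D2:**
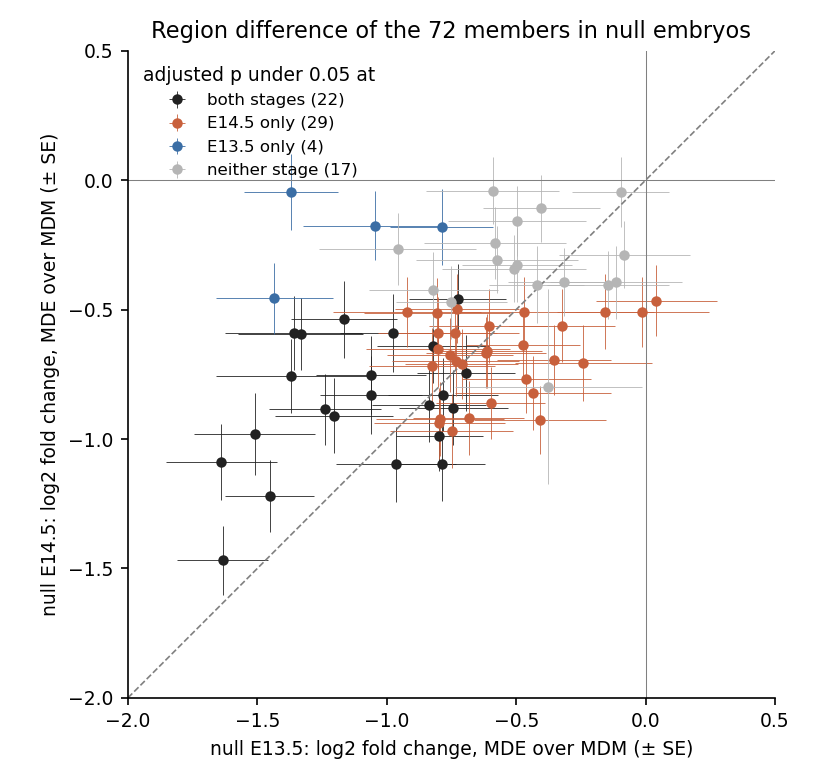
Fitted log2 fold change of MDE over MDM for each of the 72 members in null embryos at E13.5 (x axis) and at E14.5 (y axis), with bars of 1 SE and the line of equality dashed. Of the members, 22 passed the test at both stages (black), 29 at E14.5 only, 4 at E13.5 only and 17 at neither, and nearly all lie below 0 on both axes.

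Both members with the most negative wild-type difference were also the 2 with the lowest p in null embryos at each stage. RTS0064427 stood at 450.2, 339.8 and 329 CPM in null E13.5 MDM and at 151, 132 and 84.9 CPM in the MDE of the same embryos. In null E14.5 it stood at 213, 426 and 216 CPM in MDM and at 81.8, 139 and 87.2 CPM in MDE. Every MDM library was above every MDE library at both stages. The log2 fold change of MDE over MDM was -1.63 (SE 0.18, edgeR adjusted p = 1.96e-13) at E13.5 and -1.47 (SE 0.13, adjusted p = 3.08e-18) at E14.5. RTS0068460 stood at 416, 263 and 479 CPM in null E13.5 MDM, against 122, 159 and 139.6 CPM in MDE. At E14.5 it stood at 231, 193 and 169.6 CPM in null MDM, against 124, 78.7 and 61.4 CPM in MDE. The 2 regions again did not overlap at either stage, with log2 fold changes of -1.45 (SE 0.17, edgeR adjusted p = 2.52e-11) and -1.22 (SE 0.14, adjusted p = 2.10e-12).

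The region difference of the members changed with stage in null embryos for 1 member only in the edgeR test of that change, RTS0072046, where 0.0397% of all probes were called higher and 0.0397% lower. Over members the median change was 0.09, and 8 members had an unadjusted p under 0.05, all toward a smaller difference. Of all 20175 probes 1118 had such a p, 574 of them with a change above 0. Of the 2814 probes of at least 60 CPM 209 did, 132 of them above 0. RTS0072046 stood at 348, 253 and 264 CPM in null E13.5 MDM and at 144, 93.4 and 95.8 CPM in MDE. By E14.5 it stood at 61.2, 72.6 and 62.5 CPM in null MDM and at 39.3, 68.0 and 72.7 CPM in MDE. The regions were apart at E13.5 and overlapped at E14.5. Between the stages its region difference moved by 1.32 (log2, SE 0.24) toward 0, with an edgeR adjusted p of 5.27e-04. Without null E14.5 embryo 2 the change was 1.36 with an adjusted p of 0.058. In wild-type embryos the d of RTS0072046 also moved toward 0. It was -1.32, -1.75 and -1.90 at E13.5 and -1.03, -0.26 and -0.38 at E14.5, a description since these values chose the members. The smaller difference at E14.5 is thus not read as particular to null embryos.

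Member levels in null mesenchyme were lower at E14.5 than at E13.5. The median over members was 109, 93.7 and 95.2 CPM in the 3 null E13.5 MDM libraries and 68.9, 81.1 and 65.8 CPM in the 3 at E14.5. No null E14.5 library reached the lowest null E13.5 one. In wild-type MDM the same median was 84.6, 94.2 and 124 CPM at E13.5 and 120.3, 104 and 102 CPM at E14.5. In MDE it was 57.5, 63.2 and 60.2 CPM in null E13.5, 49.1, 51.6 and 46.8 CPM in null E14.5, 55.4, 43.1 and 48.6 CPM in wild-type E13.5 and 45.6, 43.6 and 41.1 CPM in wild-type E14.5. Members in MDE lay close to the background: 8 to 38 of 72 per MDE library were under 1.5 times it, and the median count of a member was 7 to 135 in MDE against 88 to 1004 in MDM.

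**Figure D3:**
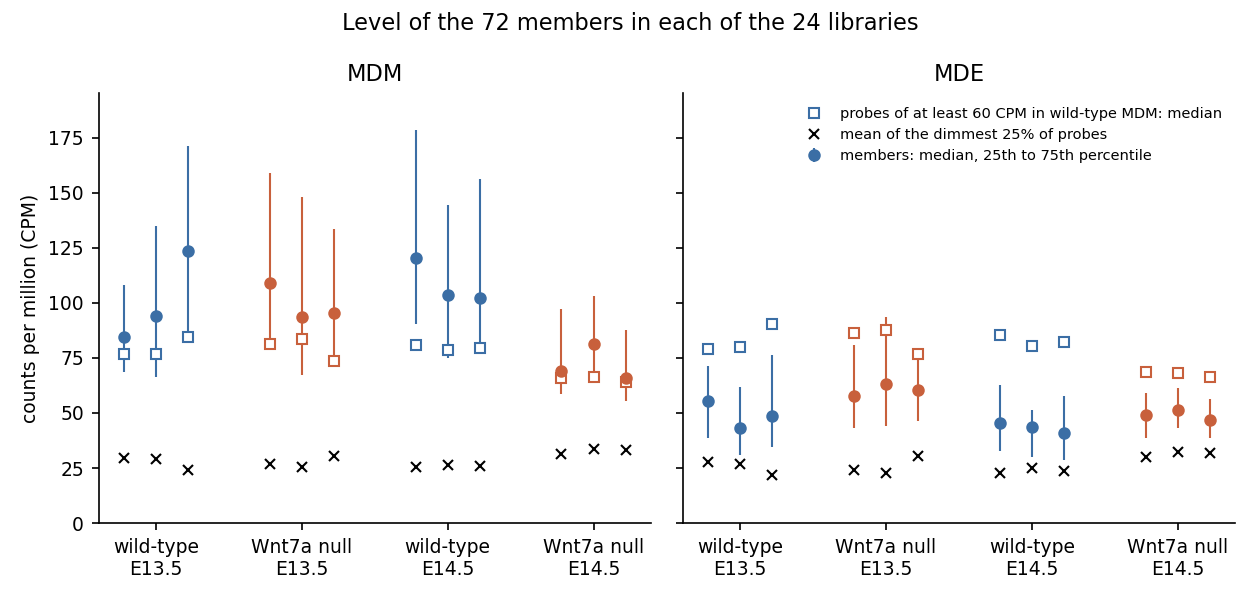
CPM (y axis) in each of the 24 libraries, with MDM on the left and MDE on the right and 3 embryos per group along the x axis in the order of their replicate numbers. Filled circles with bars give the median and the 25th to 75th percentile of the 72 members, open squares the median of the 2814 probes of at least 60 CPM, and crosses the background. In null E14.5 MDM the members' medians are 65.8 to 81.1 CPM, the squares are lower than in the other MDM groups and the crosses are higher.

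In null MDM, edgeR called 43 of 72 members lower at E14.5 than at E13.5 and 1 higher, with a median log2 change of -0.55. Of all probes 13.7% were called lower and 4.21% higher. Among the probes of at least 60 CPM 57.5% were called lower, and their median change was -0.46, so the members' share of 59.7% was near that background. With the library's contrast as a covariate 12 members were called lower and 4 higher, and without null E14.5 embryo 3 the counts were 28 lower and 1 higher. The members with the lowest p among those that fell were RTS0072046, given above, at -2.27 (SE 0.25, edgeR adjusted p = 2.39e-09), and RTS0062609. RTS0062609 stood at 227, 114 and 165 CPM in null E13.5 MDM and at 63.1, 64.9 and 58.3 CPM in null E14.5 MDM, with no overlap. It fell by 1.57 in log2 units (SE 0.20) at an adjusted p of 1.24e-07. In wild-type MDM, a description, RTS0062609 stood at 172, 189 and 138 CPM at E13.5 and at 104, 88.6 and 86.6 CPM at E14.5, also without overlap.

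The one member that rose with stage in null mesenchyme was RTS0067163. It stood at 82.6, 65.0 and 78.5 CPM in null E13.5 MDM and at 193, 139 and 126 CPM in null E14.5 MDM. All 3 later libraries were above all 3 earlier ones, a log2 rise of 0.89 (SE 0.23) at an edgeR adjusted p of 0.005. Its MDE levels were 57.5, 65.9 and 49.3 CPM at E13.5 and 58.9, 75.2 and 79.1 CPM at E14.5 in null embryos. The d of this member was -0.40, 0.015 and -0.51 in the null E13.5 embryos and -1.43, -0.74 and -0.56 in the null E14.5 embryos. In wild-type MDM it stood at 85.6, 65.6 and 138 CPM at E13.5 and at 174, 263 and 235 CPM at E14.5.

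In null MDE, 7 of the 71 members tested fell with stage and 0 rose, with a median log2 change of -0.38; 1 member was below the low-count filter. Of all probes tested 1.8% were called lower and 0.156% higher, and of the probes of at least 60 CPM 8.39% were called lower, with a median change of -0.32. All 7 had also fallen in null MDM, as had 59.7% of all members and 57.5% of the probes of at least 60 CPM. RTS0068976 stood at 281, 626 and 274 CPM in null E13.5 MDE and at 115, 80.2 and 84.0 CPM in null E14.5 MDE, which do not overlap. It fell by 2.18 in log2 units (SE 0.28) at an edgeR adjusted p of 1.38e-10. RTS0064438 stood at 151, 137 and 169.8 CPM at E13.5 and at 68.7, 82.9 and 63.0 CPM at E14.5, also without overlap, and fell by 1.11 (SE 0.25, adjusted p = 0.00218). In wild-type MDE, a description, the fitted stage changes were -0.82 (SE 0.32) for RTS0068976 and -0.76 (SE 0.34) for RTS0064438. In null MDE, RTS0064438 had an adjusted p of 0.236 with counts thinned to the lowest total and of 0.0536 with contrast as a covariate. The count was 4 without null E13.5 embryo 1 or 2 and without null E14.5 embryo 2 or 3. It was 1 with thinned counts and 1 with contrast as a covariate.

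The stage difference in wild-type mesenchyme is only a description, because these libraries chose the members. The median log2 change of E14.5 over E13.5 was 0.19 over members. Counted by the same threshold, 3 members were higher at E14.5 and 1 lower, where 0.268% of all probes were higher and 0.0347% lower, and nothing is read from these counts. RTS0069528 stood at 41.4, 42.2 and 48.5 CPM in wild-type E13.5 MDM and at 90.5, 112 and 96.5 CPM at E14.5. RTS0068433 stood at 44.2, 43.5 and 68.4 CPM and then at 95.1, 128 and 137 CPM. For both, all 3 later libraries were above all 3 earlier ones. RTS0072046, the member with the largest fitted fall in null MDM, stood at 257, 316 and 288 CPM in wild-type E13.5 MDM and at 184, 109 and 113 CPM at E14.5, also without overlap. The count of 4 became 2 without E13.5 embryo 1 or 2 or E14.5 embryo 2, and 14 without E13.5 embryo 3. Whether the stage change differed between genotypes is not reported here.

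Because wild-type libraries chose the members, a comparison of null with wild-type over the 72 is only a description. In it, 71 of 72 members had a smaller mean region difference in null than in wild-type E14.5 embryos, and 54 did at E13.5. To test the genotypes on values the choice did not use, the same rule was applied to the 3 wild-type embryos of 1 stage and the chosen probes were measured at the other stage. The rule on wild-type E13.5 chose 75 probes, of which 49 are members. On wild-type E14.5 it chose 117 probes, of which 65 are members, and 42 probes were chosen at both stages.

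The region difference of probes chosen at 1 stage was found again at the other in wild-type embryos. Of the 75 probes chosen at E13.5, edgeR called 44 lower in MDE in wild-type E14.5 embryos and 0 higher, with a median log2 fold change of -0.98. Of all probes 0.803% were called lower and 1.55% higher, and of the probes of at least 60 CPM 4.16% were called lower. Without wild-type E14.5 embryo 2 or 3 the count was 29. RTS0068462 stood at 270.4, 295 and 246 CPM in wild-type E14.5 MDM against 39.9, 77.1 and 32.9 CPM in MDE, with no overlap, a log2 fold change of -2.33 (SE 0.21, edgeR adjusted p = 2.51e-22). RTS0064427 stood at 736, 404 and 538 CPM against 108, 101 and 123 CPM, also apart, with -2.22 (SE 0.15, adjusted p = 3.64e-34).

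In the other direction, 25 of the 117 probes chosen at E14.5 were called lower in MDE in wild-type E13.5 embryos and 0 higher, where 0.287% of all probes were called lower and 0.699% higher. Of the probes of at least 60 CPM 1.78% were called lower. The median log2 fold change was -0.72. Without wild-type E13.5 embryo 2 or 3 the count was 14 or 12, and upper-quartile scaling gave 50. RTS0064427 stood at 296, 342 and 416 CPM in wild-type E13.5 MDM and at 131, 92.4 and 97.2 CPM in MDE, with -1.60 (SE 0.18, edgeR adjusted p = 3.66e-14). RTS0064438 stood at 250.1, 297 and 275 CPM and at 103, 80.1 and 132 CPM, with -1.35 (SE 0.19, adjusted p = 7.15e-09). MDM was above MDE in every library pair for both.

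At E14.5 the region difference of the probes chosen at E13.5 was smaller in null embryos. Their median d was -0.95, -0.63 and -0.80 in the 3 wild-type E14.5 embryos, a mean of -0.79 ± 0.16 (SD, n = 3). In the 3 null E14.5 embryos it was -0.37, -0.36 and -0.27, a mean of -0.33 ± 0.057 (SD, n = 3). The genotypes did not overlap. The 72 probes that the mirrored rule chose as higher in epithelium also lay nearer to 0 in null embryos: their median d was 1.08 ± 0.11 (SD, n = 3) in wild-type and 0.50 ± 0.024 in null E14.5 embryos, a description since wild-type E14.5 values chose them. The move toward 0 was thus seen on both sides of the region difference. Library contrast, the share of counts on the brightest probes, moved with genotype as well. It ran from 25.1% to 28.9% over the wild-type E14.5 libraries and from 13.9% to 19.5% over the null ones, and its part in the result was not tested. Probe by probe, d was higher in every null than in every wild-type E14.5 embryo for 30 of the 75, against 6.96% of all probes. EdgeR called the genotype effect on the region difference for 10 of the 75, all toward a smaller difference in null embryos, and 0 the other way. Of all probes 0.0743% were called in that direction and 0.154% in the other, and of the probes of at least 60 CPM 0.533% were called in that direction. The median effect over the 75 was 0.48 on the log2 scale.

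All 10 are members, but the rule for members also used the wild-type E14.5 values, so this overlap is only a description. Of the 10, 9 were also called lower in null than in wild-type MDM, with fitted changes from -2.02 to -0.70 over the 10. In the same MDM test 68% of the 75, 71% of the probes of at least 60 CPM and 17.6% of all probes were called lower. A fall particular to the 10 is thus not read from that count. In MDE 0 of the 10 were called, where 4.61% of all probes tested were called lower and 0.786% higher. In null E14.5 embryos 7 of the 10 still passed the test for a lower signal in MDE. In that test 50.7% of the 75, 2.77% of the probes of at least 60 CPM and 0.555% of all probes were called lower. A trait particular to the 10 is not read from that count. The count of 10 depended on single embryos: it was 5 without null embryo 2, 3 without null embryo 3, 4 without wild-type embryo 1, 3 without wild-type embryo 2 and 2 without wild-type embryo 3. Without the embryo as a replicate block it was 0. It was 2 with MDM counts thinned to the depth of MDE, and DESeq2 called 2 of the 60 that had an adjusted p.

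**Figure D4:**
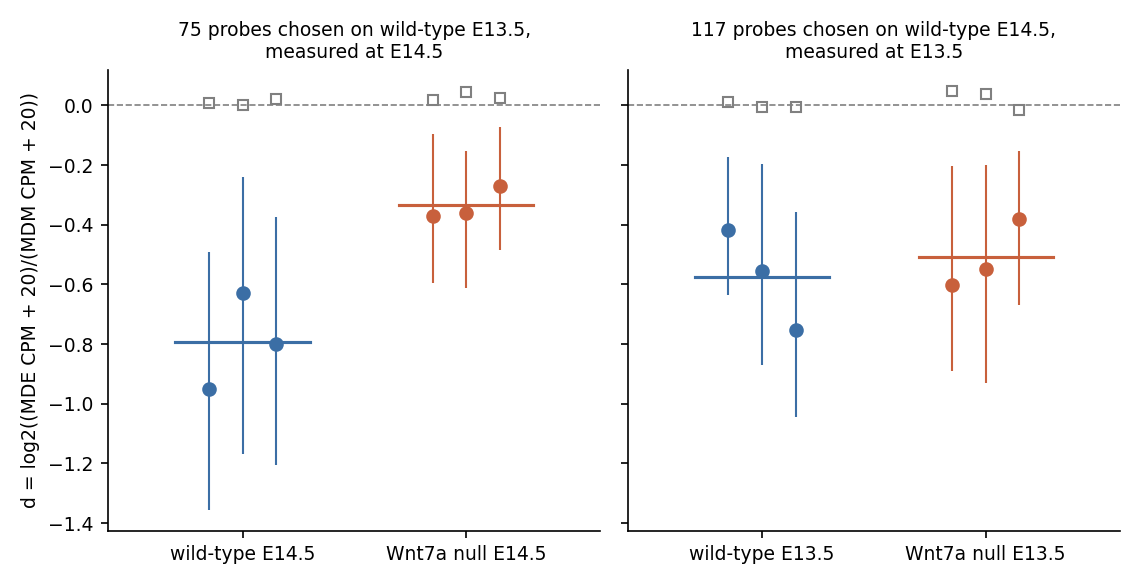
Median region difference d per embryo (filled circles, with bars from the 25th to the 75th percentile over probes and a line at the mean of 3 embryos) for probes chosen on wild-type embryos of the other stage, with open squares for the median of the 2814 probes of at least 60 CPM. On the left, 75 probes chosen at E13.5 have medians of -0.95 to -0.63 in wild-type E14.5 and of -0.37 to -0.27 in null E14.5. On the right, 117 probes chosen at E14.5 overlap between the genotypes at E13.5.

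RTS0070870 and RTS0071776 had the lowest p for this genotype effect. RTS0070870 stood at 184, 138 and 116 CPM in wild-type E14.5 MDM and at 59.3, 71.1 and 57.4 CPM in null E14.5 MDM. Its MDE levels were 39.9, 26.8 and 28.8 CPM in wild-type and 36.0, 44.7 and 54.9 CPM in null embryos. MDM levels were thus apart between genotypes and MDE levels overlapped. The region difference was smaller in null embryos by 1.66 in log2 units (SE 0.31) at an edgeR adjusted p of 2.90e-04, a call that was lost with thinned MDM counts at an adjusted p of 0.0717.

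RTS0071776 stood at 136, 150.2 and 170.5 CPM in wild-type E14.5 MDM and at 114, 105 and 89.0 CPM in null E14.5 MDM. In MDE it stood at 34.2, 53.7 and 28.8 CPM in wild-type and at 55.6, 89.8 and 50.1 CPM in null embryos. MDM levels did not overlap, and 1 null MDE library lay among the wild-type ones. Its genotype effect was 1.44 (SE 0.29, edgeR adjusted p = 0.00122), and the adjusted p was 0.593 without null embryo 2 and 0.214 without wild-type embryo 3.

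Most of the 75 probes were lower in null than in wild-type mesenchyme at E14.5, as were most probes of at least 60 CPM. EdgeR called 51 of 75 lower and 0 higher, with a median log2 change of -0.70. Of all probes 17.6% were called lower and 12.1% higher, and of the probes of at least 60 CPM 71% were called lower, with a median of -0.55, so the count is near that background. With contrast as a covariate 0 were called. Contrast did not overlap between the genotypes at E14.5, so genotype and contrast cannot be told apart and nothing is read from that fit. The MDM level was lower in every null than in every wild-type library for 42 of the 75, against 12.4% of all probes and 64.4% of those of at least 60 CPM. RTS0076359 stood at 197, 112 and 128 CPM in wild-type E14.5 MDM and at 55.3, 83.1 and 52.7 CPM in null E14.5 MDM, with no overlap and a change of -1.39 (SE 0.21, edgeR adjusted p = 2.96e-06). RTS0070870, given above, changed by -1.42 (SE 0.20, adjusted p = 2.25e-06).

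In E14.5 epithelium few of these probes were called. Of the 73 tested, 3 were called lower in null MDE and 0 higher, with a median log2 change of -0.03. Of all probes tested 4.61% were called lower and 0.786% higher. Of the probes of at least 60 CPM 20.4% were called lower, with a median of -0.44. That floor was set on wild-type MDM, and the sets were not matched in level in MDE. In wild-type E14.5 MDE the library median averaged 45.9 CPM over the chosen probes and 82.7 CPM over those of at least 60 CPM. A sparing of the chosen probes in epithelium is thus not read from these shares and medians. Of the 3 called, the 2 with the lowest p, RTS0067100 and RTS0075264, are not among the 72 members. RTS0067100 stood at 159.6, 295 and 276 CPM in wild-type E14.5 MDE and at 150.5, 112 and 109.8 CPM in null E14.5 MDE, apart by little, with a change of -1.18 (SE 0.25, edgeR adjusted p = 4.35e-04). RTS0075264 stood at 74.1, 134 and 103 CPM and at 45.8, 60.3 and 50.1 CPM, also apart, with -1.09 (SE 0.25, adjusted p = 0.00107). With thinned counts or with contrast as a covariate 0 of the 73 were called, and without wild-type E14.5 embryo 2 there was 1. With upper-quartile scaling 2 were called lower and 2 higher, so the direction of the calls depended on the scaling. As in MDM, genotype and contrast cannot be told apart in these libraries.

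At E13.5 no genotype difference was called in the 117 probes chosen at E14.5. Their median d was -0.42, -0.56 and -0.75 in wild-type E13.5 embryos and -0.60, -0.55 and -0.38 in null E13.5 embryos, which overlap. EdgeR called 0 of 117 for the genotype effect on the region difference, where 0% of all probes were called in either direction, and 9 had an unadjusted p under 0.05. Of those 9, 7 were above 0, the direction of the calls at E14.5. Over the whole panel 855 of 20175 probes had such a p, 415 of them above 0. In MDM edgeR called 0 of 117, where 0% of all probes were called. An unadjusted p under 0.05 was seen for 6, of which 4 were higher in null. It was seen for 768 of all 20175 probes, 422 of them higher in null. In MDE edgeR called 0 of 115 tested, where 0.00678% of all probes were called lower and 0% higher. An unadjusted p under 0.05 was seen for 11, of which 10 were higher in null. It was seen for 634 of all 14758 probes tested, 321 of them higher in null. DESeq2 also called 0 in each of the 3. These counts do not show that the genotypes were alike at E13.5, where the MDE libraries held 139017 to 365215 counts, against 175461 to 2618342 at E14.5. Whether the genotype effect differed between the stages is not reported here.

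**Figure D5:**
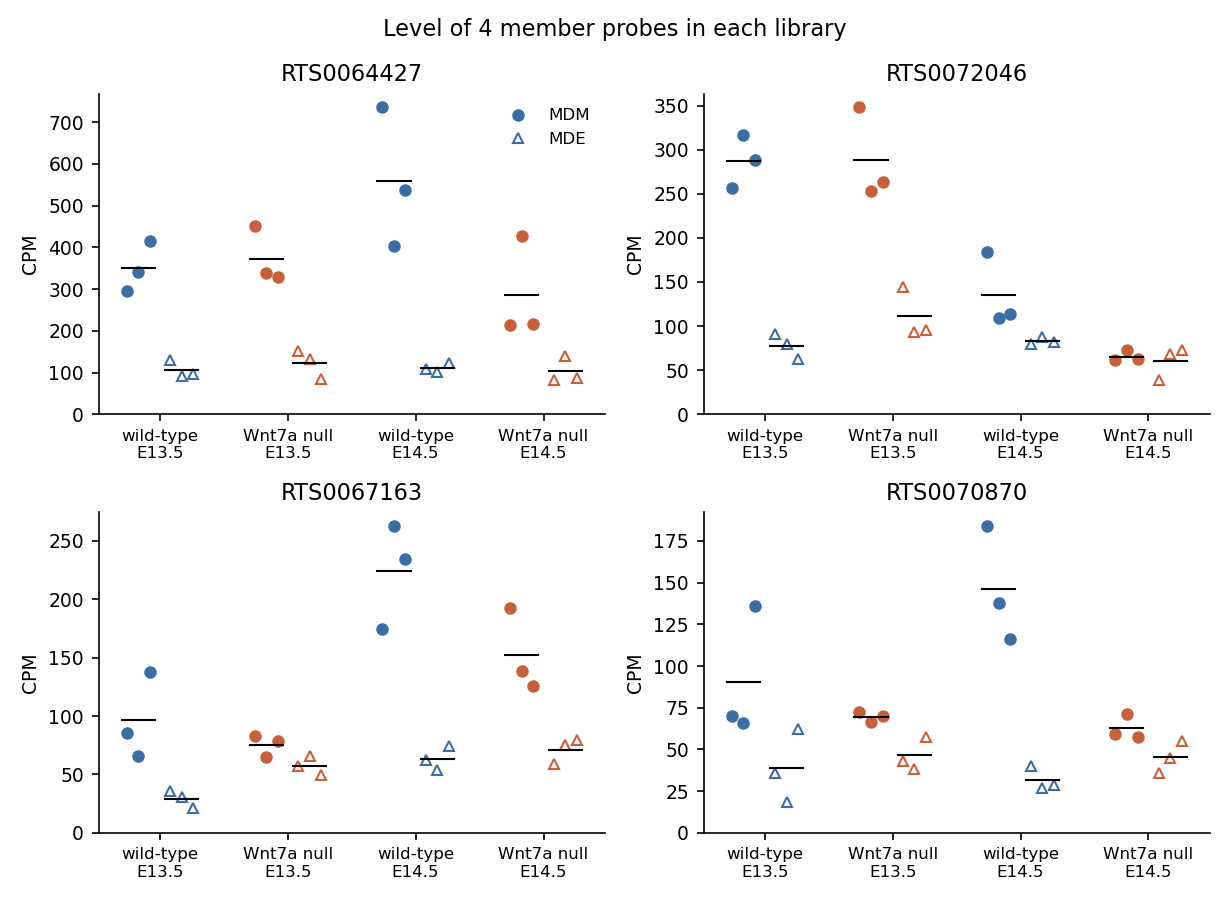
CPM (y axis, from 0) of 4 members in each library, with filled circles for MDM and open triangles for MDE, 3 embryos per group and a line at each group's mean. RTS0064427 keeps the regions apart in all 4 groups, RTS0072046 falls to 61.2 to 72.6 CPM in null E14.5 MDM, RTS0067163 is higher at E14.5 than at E13.5 in MDM of both genotypes, and RTS0070870 in null E14.5 MDM lies below its wild-type E14.5 levels.

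The members differed among themselves in how much of the region difference was seen in null embryos. All 5 with a wild-type mean d of at most -1.5 were called at both stages in null embryos, with median log2 fold changes of -1.45 at E13.5 and -1.10 at E14.5. Of the 21 with a mean d between -1.5 and -1.0, 8 were called at E13.5 and 17 at E14.5. The 46 between -1.0 and -0.7 had 13 and 29 called. By level, 9 of the 43 members with 60 to 120 CPM in wild-type MDM were called at E13.5 and 29 at E14.5, against 14 and 19 of the 25 with 120 to 300 CPM and 3 and 3 of the 4 above 300 CPM. Brighter members also have more counts, and the part of depth in these shares was not tested. Across the 72 members, the mean d in null E14.5 embryos and in wild-type E14.5 embryos had a Pearson r of 0.68 and a Spearman rho of 0.61. At E13.5 the same pair of values, null against wild-type, had a weaker relation, with an r of 0.41 and a rho of 0.21. Between null E13.5 and null E14.5 embryos r was 0.46 and rho 0.43. Probes are not independent replicates, and the wild-type values are bounded by the rule.

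Summed over all members, the signal in MDE relative to MDM was -0.83 ± 0.20 (log2, SD, n = 3) in null E13.5 embryos and -0.67 ± 0.11 in null E14.5 embryos. With the background subtracted from each library before summing, a step chosen after the data were seen, it was -1.12 ± 0.31 and -1.26 ± 0.14. The order of the 2 stages thus turned with that step. For the 75 probes chosen at E13.5, the summed ratio at E14.5 was -1.10 ± 0.16 in wild-type and -0.52 ± 0.10 in null embryos, and -1.54 ± 0.18 and -0.93 ± 0.17 after subtraction. The null embryos were higher by 0.58 before and by 0.60 after it. The single embryos were -1.72, -1.35 and -1.54 in wild-type and -0.91, -1.11 and -0.78 in null after subtraction, so the genotypes did not overlap. For the probes of the mirrored rule, a description, the summed ratio at E14.5 was 1.36 ± 0.15 in wild-type and 0.75 ± 0.079 in null embryos. After subtraction it was 1.86 ± 0.16 and 1.52 ± 0.078, so on that side the step narrowed the gap between genotypes. The part of background in either gap was not tested.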

How the data were processed

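The authors deposited a raw count for each probe in each library. Per the file headers, these came from version 2.3.5 of the GeoMx NGS Pipeline. Each library's counts total fewer than its aligned reads, and the sources used here do not say how reads were collapsed. The submitters' processing notes name the build GRCm38.p6. A probe that a file does not list was given a count of 0. Titles gave the groups, and an embryo is 1 number shared by its 2 regions. The members, lists and comparisons were chosen with earlier results of these data known.

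Probes were tested by edgeR's quasi-likelihood method (version 4.0.16, R 4.3.3, robust fit) after TMM scaling and filterByExpr with at least 10 counts and a total of 15. P-values were adjusted by Benjamini-Hochberg over all probes, with a threshold of 0.05. The null region fit held the 12 null libraries, the wild-type and genotype region fit all 24, and both had the embryo as a block. Stage and genotype differences within a region came from the 12 libraries of that region. Each SE is the size of the log2 fold change over the square root of F. The steps were tested on simulated data.

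Named probes are, per comparison, at most 2 called in each direction with the lowest p, the 2 members with the most negative mean d, and the probes next to the threshold. An exception is said to be chosen after its value was seen. Alternatives were scaling to the upper quartile (75th percentile), DESeq2 1.42.0, a low-count filter of 20 or none, fits with or without a block, thinned counts, contrast as a covariate, other settings of the rule and leaving out each embryo. Precision is limited by 3 embryos per group and by the low MDE counts.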

Additional observations from a re-analysis of the deposited data

Results flagged for a closer look

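The genotype effect on the region difference at E14.5 differed from 0 by its own test, the interaction of genotype and region in edgeR, for 10 of the 75 probes chosen on wild-type E13.5 embryos. Each of the 10 had a smaller difference between MDE and MDM in null embryos, and their fitted effects ran from 1.04 to 1.66 on the log2 scale. Of all probes 0.0743% were called in that direction and 0.154% in the other. The count was 2 to 8 with single E14.5 embryos left out, and no call was left without the embryo as a replicate block. Thinned MDM counts and DESeq2 each gave fewer calls. The change of the null region difference between E13.5 and E14.5, tested as the interaction of region and stage, was called for 1 member, RTS0072046, at 1.32 on the log2 scale (SE 0.24, edgeR adjusted p = 5.27e-04). Of all probes 0.0397% were called in each direction. That call was lost without null E14.5 embryo 2 and without the embryo as a replicate block. As a description, the fitted region difference of RTS0072046 in wild-type embryos was -1.79 at E13.5 and -0.57 at E14.5. Groups of 3 libraries are too small for the check on single samples that stand apart from their group.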

How the results depend on the processing

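Of the alternatives to the counts of called probes, 132 stayed within 1.5 times the count reported and 47 did not. The cause was not tested. Both directions were counted together, so a change of direction does not show in these labels. In E14.5 MDE, upper-quartile scaling gave 2 lower and 2 higher for the genotype difference. For named probes, 244 alternatives kept direction and call, 25 kept the direction and lost the call, and 0 reversed. Without the embryo as a replicate block, 11 members were called in null E13.5, 7 in null E14.5, 0 for the change with stage, 12 of the 117 in wild-type E13.5 and 0 of the 75 for the genotype effect on the region difference at E14.5. With upper-quartile scaling there were 43 in null E13.5 and 50 in wild-type E13.5. DESeq2 called 25 in null E14.5, 2 for that genotype effect and 7 for the wild-type MDM stage difference. Thinned counts gave 14 in null E13.5, 2 for the genotype effect, 0 for the genotype difference in E14.5 MDE and 1 for the null MDE stage difference. With contrast as a covariate the genotype difference at E14.5 had 0 called in MDM and 0 in MDE. Genotype and contrast cannot be told apart at that stage. In the same fits the stage difference in null embryos had 16 in MDM and 1 in MDE. A filter at 20 counts left 1 called in E14.5 MDE, higher in null, and 3 for the null MDE stage difference. The rule gave 115 members at a mean d of -0.5, 26 at -1.0, 30 with a pseudocount of 50 CPM and 37 with a floor of 100 CPM. After background subtraction the summed ratios were -1.12 and -1.26 for members in null E13.5 and E14.5, and -1.54 and -0.93 for the probes chosen at E13.5 in wild-type and null E14.5.

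Leaving out each embryo gave 60 to 85 members. Region differences then had 14 to 18 called in null E13.5, 11 to 44 in null E14.5, 12 to 19 in wild-type E13.5, 29 to 35 in wild-type E14.5 and 0 to 1 for the change with stage. Stage differences had 29 to 47 in null MDM, 4 to 8 in null MDE and 2 to 14 in wild-type MDM. Genotype differences at E14.5 had 39 to 56 in MDM, 1 to 3 in MDE and 2 to 8 for the region difference, and those at E13.5 had 0 throughout.

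The replicate numbers did not pair embryos across genotypes: 12 correlations of same-numbered libraries ran from -0.45 to 0.078, and 0 passed 0.1. With the number as a replicate block, 41 members were called for the null MDM stage difference. Low MDE counts, a median of 7 to 135 per member, limit the region results.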

Other observations

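In the panel's identifier order, 20 of the 72 members had another member within 10 positions. Counted around each member in turn, with repeats, 2.92% of 1440 neighbouring positions held a member, while members are 0.357% of the panel. The longest run held 8 members in a stretch of 27 consecutive identifiers that includes RTS0064427 and RTS0064438. All 8 were called lower in MDE in null E14.5 embryos, with log2 fold changes from -1.47 to -0.51, and 4 were called at E13.5. Over all 72 members 70.8% were called at E14.5 and 36.1% at E13.5, and over all probes 0.555% and 0.297%. Of the 5 members with a wild-type mean d of at most -1.5, 3 were in that stretch. What orders the identifiers is not given in the sources used here, and no gene is named from it.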
